A study of Mus musculus with 20 samples.

Results

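The cytochrome P450 genes of families 1 to 3 were followed in the livers of 20 male mice of the leptin-deficient, obese ob/ob strain. The set was taken by symbol: every gene of the array annotation named Cyp1, Cyp2 or Cyp3 with a subfamily letter and a number was a member, which gave 56 of the 19505 genes with a symbol. Of these, 9 had a mean log2 signal below 4.49, the mean over arrays of the median of the negative-control probe sets, and were left out: Cyp1a1, Cyp1b1, Cyp2c66, Cyp2j11, Cyp2j12, Cyp2j13, Cyp2s1, Cyp2t4 and Cyp2w1. The 47 described were 1 gene of subfamily 1a, 4 of 2a, 5 of 2b, 13 of 2c, 8 of 2d, 1 each of 2e, 2f, 2g, 2r and 2u, 4 of 2j and 7 of 3a, and every one of the 47 passed the filter on low values used for the tests. Cyp2c29 was not analysed here.

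The mice fell into 4 groups of 5: filtered air, PM2.5 (fine particulate matter), metformin, and PM2.5 with metformin, called the combined group below. All carried the ob/ob genotype, so no comparison was made with lean mice, and the age of the mice is not given in the labels. Particles were given in an exposure chamber for 6 hours per day over 2 weeks, and metformin, a glucose-lowering drug, was given in the drinking water at a dose set by body weight. The label of the metformin group does not name the air those mice breathed, and chamber hours are stated only for the particulate exposure. Each mouse gave 1 array of liver RNA. The labels do not say whether the groups were housed, exposed or processed apart. The p-values set each difference against the spread between mice within the groups. A chamber, cage or processing effect shared by a group cannot be told apart from its treatment.

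Cytochrome P450 enzymes are heme proteins of the endoplasmic reticulum that oxidise drugs, pollutants, steroids, bile acids and fatty acids, with electrons supplied by P450 reductase. Families 1 to 3 hold most of the drug-metabolising members, and hepatocytes express them more strongly than other cells. The aryl hydrocarbon receptor drives the Cyp1 genes when it binds polycyclic aromatic compounds, a class found on combustion particles. The nuclear receptors CAR (gene Nr1i3) and PXR (gene Nr1i2) drive Cyp2b, Cyp2c and Cyp3a genes, and HNF4-type factors set their basal level in liver.

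The promoters below belong to the genes on which the results turn. Cyp2c40, Cyp2c69 and Cyp2c67 were lower in the combined group and lie next to one another with Cyp2c68 in RefSeq's gene order for GRCm38.p6. Cyp2j9 and Cyp2j8 were higher in the PM2.5 groups and lie in 1 cluster with Cyp2j6 and Cyp2j5. Cyp2a5 and Cyp2a4 are a near-identical pair of which only the first passed a test. Each sequence is the 250 bases before the annotated transcript start from RefSeq (build GRCm38.p6), written 5′ to 3′ along the gene. In the first set, capitals mark CAAAGTCCA, an HNF4-type element.
Cyp2c40, chr19:39812815-39813064, minus strand: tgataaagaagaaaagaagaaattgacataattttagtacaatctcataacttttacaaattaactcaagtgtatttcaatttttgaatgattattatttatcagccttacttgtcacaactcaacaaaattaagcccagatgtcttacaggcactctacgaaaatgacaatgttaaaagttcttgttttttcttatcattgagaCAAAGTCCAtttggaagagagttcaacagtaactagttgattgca
Cyp2c69, chr19:39886770-39887019, minus strand: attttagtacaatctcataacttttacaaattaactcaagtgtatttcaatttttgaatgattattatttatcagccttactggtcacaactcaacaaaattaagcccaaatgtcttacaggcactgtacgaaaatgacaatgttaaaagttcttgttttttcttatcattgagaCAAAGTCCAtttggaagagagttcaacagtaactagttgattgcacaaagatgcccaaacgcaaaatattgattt
Cyp2c67, chr19:39649043-39649292, minus strand: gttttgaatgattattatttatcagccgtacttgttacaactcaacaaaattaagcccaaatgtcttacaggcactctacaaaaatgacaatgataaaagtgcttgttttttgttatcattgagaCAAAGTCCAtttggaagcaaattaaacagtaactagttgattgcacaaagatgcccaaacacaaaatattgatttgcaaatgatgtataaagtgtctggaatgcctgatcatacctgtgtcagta
In the Cyp2j pair, capitals mark GCGTG, the core recognised by the aryl hydrocarbon receptor, and TTGCNNAA, a C/EBP-type element.
Cyp2j9, chr4:96591486-96591735, minus strand: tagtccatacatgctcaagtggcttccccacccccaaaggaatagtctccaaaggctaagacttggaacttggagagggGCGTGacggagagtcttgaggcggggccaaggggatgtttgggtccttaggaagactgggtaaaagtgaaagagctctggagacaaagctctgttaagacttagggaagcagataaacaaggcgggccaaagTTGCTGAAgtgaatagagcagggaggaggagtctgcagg
Cyp2j8, chr4:96507398-96507647, minus strand: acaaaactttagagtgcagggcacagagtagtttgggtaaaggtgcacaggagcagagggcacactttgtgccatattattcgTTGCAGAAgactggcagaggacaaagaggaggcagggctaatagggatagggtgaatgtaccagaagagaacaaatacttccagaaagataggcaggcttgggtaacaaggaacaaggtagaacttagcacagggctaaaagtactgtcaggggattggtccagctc
In the Cyp2a pair, capitals mark the bases at which an alignment of the 2 promoters differs, ends included.
Cyp2a5, chr7:26835089-26835338, plus strand: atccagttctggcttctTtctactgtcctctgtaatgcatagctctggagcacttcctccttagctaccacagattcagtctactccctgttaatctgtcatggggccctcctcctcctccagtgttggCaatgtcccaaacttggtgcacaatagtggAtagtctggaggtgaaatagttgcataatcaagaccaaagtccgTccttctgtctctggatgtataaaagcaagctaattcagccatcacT
Cyp2a4, chr7:26306942-26307191, plus strand: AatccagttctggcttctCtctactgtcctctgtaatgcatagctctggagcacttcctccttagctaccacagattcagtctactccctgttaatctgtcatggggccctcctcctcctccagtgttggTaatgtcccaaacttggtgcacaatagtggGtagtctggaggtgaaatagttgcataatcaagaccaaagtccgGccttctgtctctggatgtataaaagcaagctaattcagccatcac

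A promoter was matched for 39 of the 47 members, and 13 motifs were searched on both strands. CAAAGTCCA was present in 0.384% of all 32851 promoters of this length and in 8 of the 39 members: Cyp2c40, Cyp2c65, Cyp2c67, Cyp2c68, Cyp2c69, Cyp2c70, Cyp3a11 and Cyp3a16. It began 45 bases upstream of the start in Cyp2c40, 75 bases upstream in Cyp2c69 and 125 bases upstream in Cyp2c67, a shift that follows the offset of the annotated starts within an otherwise like sequence. Aligned end to end at 250 bases each, Cyp2c40 and Cyp2c69 had 217 identical bases, 3 mismatches and 60 gap bases. Cyp2c67 and Cyp2c69 had 186 identical bases, 14 mismatches and 100 gap bases, and Cyp2c40 and Cyp2c67 had 158, 12 and 160. Most unmatched bases of these 3 pairs thus lay in gaps. TTGCNNAA was present in 9.56% of all promoters and in 13 of the 39 members. GCGTG was present in 28.2% of all promoters and in 3 of the 39 members, with the Cyp2j9 match beginning 171 bases upstream. Cyp2j9 and Cyp2j8 had 125 identical bases and 109 mismatches, against 122 and 111 for Cyp2j9 and Cyp2j5. Cyp2a5 and Cyp2a4 had 245 identical bases and 4 mismatches. Because such neighbours are alike over long stretches, probes of 1 paralog may also have read another, which was not tested.

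The arrays read liver. Hepatocyte markers such as Alb and Ttr had a summed log2 signal between 20.88 and 21.06 in every mouse, none of the 8 was below the negative-control median, and their median difference lay between -0.07 and 0.04 in the 5 comparisons of 2 groups. Combined mice 2 and 4 had the highest negative-control medians, 4.79 and 4.69 on the log2 scale, against 4.34 to 4.59 in the other 18 mice, so calls in the combined group are also given without them. The lowest median correlation with the rest of its group, 0.982, was that of combined mouse 5, followed by 0.985 in combined mouse 2. Kupffer cell markers, which mark the resident macrophages of liver, ranged more widely in the combined group, from a summed log2 signal of 11.36 to 14.99, than in filtered air (13.83 to 14.82), metformin (13.33 to 13.84) or PM2.5 (14.27 to 14.93). Of 11 such markers, 8 were lower in the combined than in the PM2.5 group, beside 4.73% of all genes tested lower. Against filtered air, 6 were lower and 1 higher, beside 16.2% of all genes lower and 18.7% higher. Without combined mice 2 and 4, 1 was lower against PM2.5, beside 34 of all 11844 genes lower. Against filtered air 2 were then lower and 1 higher, beside 970 of all genes lower and 1574 higher. Calls thus fell over all genes as well. Of 12 endothelial markers, 5 were lower in the combined group (12.57 to 13.66) than in PM2.5 (13.51 to 13.93), and 1 was without combined mice 2 and 4. The shares of all genes lower were the same 4.73% and 34 of 11844. No marker of either list had a mean below the negative-control median, and their part in the P450 results was not tested. In bulk liver, fewer hepatocytes and less RNA per hepatocyte cannot be told apart.

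Of the 47 members, 39 had a mean above 8.36, a level under which 95% of the negative-control probe sets fell on an average array, and 38 exceeded it on every array. The 8 dimmer ones (Cyp2b19, Cyp2b23, Cyp2c65, Cyp2d34, Cyp2g1, Cyp2j8, Cyp2u1 and Cyp3a16) read within the range of the negative controls, so their differences rest on weak signal. Another 10 had a mean of 17 or more on a scale whose highest deposited value was 19.03, and 5 of these 10 passed a test somewhere. Differences below are on the log2 scale with the standard error of the limma fit to all 20 arrays, and a gene rose or fell where its Benjamini-Hochberg adjusted p over all 11844 genes tested was under 0.05. Over the 5 comparisons of 2 groups, 23 of 47 members passed at least once and 24 never did. The share of all genes that passed at least once was not counted. In combined against filtered air alone, 4136 of all 11844 genes passed, so neither count sets the members apart from other genes.

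**Figure D1:**
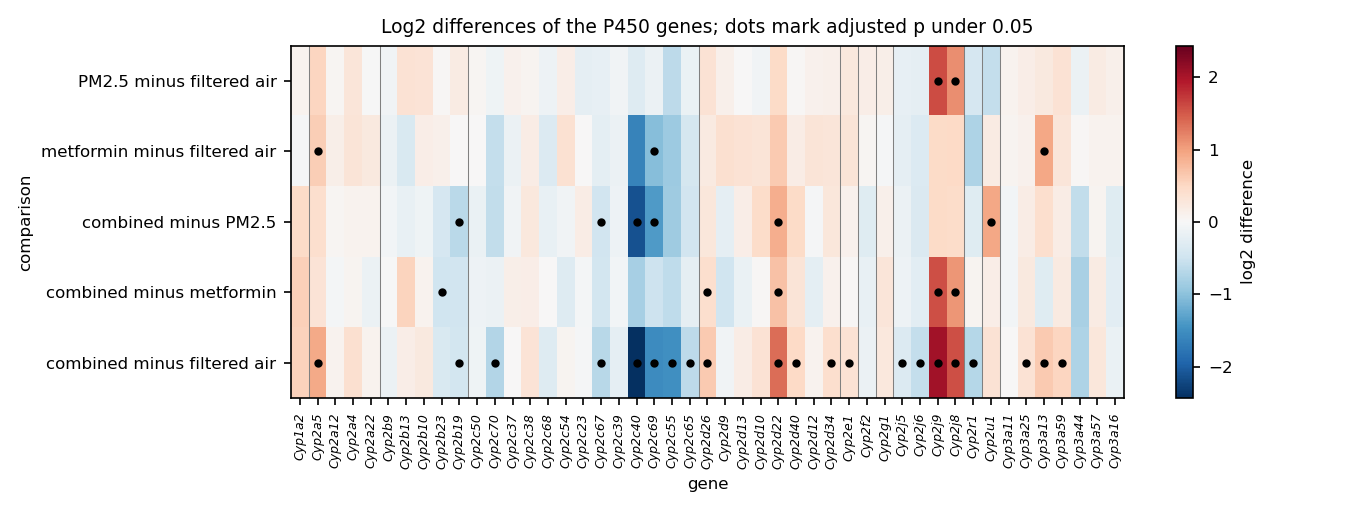
Log2 differences of the 47 P450 genes (columns, by subfamily and then by mean signal) in the 5 comparisons of 2 groups (rows), red for higher and blue for lower in the first group named; black dots mark an adjusted p under 0.05 in limma. The bottom row holds 21 dots and the PM2.5 row 2, both in subfamily 2j.

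The first comparison asked what particle exposure did without the drug. PM2.5 mice had higher Cyp2j9 and Cyp2j8 than filtered-air mice, and no other member passed. These genes encode epoxygenases and hydroxylases of arachidonic acid and related fatty acids. The counts were 2 of 47 higher and 0 of 47 lower, beside 2.67% of all genes tested higher and 2.5% lower in limma. An unadjusted p under 0.05 was found for 7 of 47 members, beside 2666 of all 11844 genes tested. The median member difference was 0.08, against 0.02 for all genes.

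Cyp2j9, an arachidonic acid hydroxylase first described from brain, read 9.71, 9.87, 9.43, 10.10 and 9.50 in filtered air. It read 11.32, 11.77, 11.38, 11.03 and 11.05 in PM2.5, so the groups did not overlap. The difference was 1.59 ± 0.33 (SE, n = 5 per group, 3.01-fold, limma adjusted p = 0.00809), and the call was kept with any 1 of the 20 mice left out, at an adjusted p of at most 0.0348. In the metformin group the gene split the mice, with 11.15 and 11.27 in mice 1 and 2 but 9.51, 9.39 and 9.64 in mice 3 to 5. In the combined group it read 11.47, 12.46, 11.82, 12.11 and 10.99, again above every filtered-air mouse. The combined group exceeded the metformin group by 1.58 ± 0.33 (2.99-fold, adjusted p = 0.00361) and filtered air by 2.05 ± 0.33 (4.14-fold, adjusted p = 0.000118). With combined mice 2 and 4 left out these became 1.24 (adjusted p = 0.058) and 1.71 (adjusted p = 0.00347). The PM2.5 difference in metformin-treated mice minus that in untreated mice was -0.01, with a 95% interval of -0.98 to 0.96 and an adjusted p of 0.997. That interval spans nearly a log2 unit either way, so a difference between the PM2.5 effects of that size could not be detected with these mice.

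Cyp2j8, its dimmer neighbour, read 4.69, 5.26, 4.82, 5.42 and 4.87 in filtered air and 6.48, 6.69, 5.90, 5.71 and 5.96 in PM2.5. Every PM2.5 mouse was higher, and the difference was 1.14 ± 0.32 (limma adjusted p = 0.0444). Both groups read within the range of the negative controls, so this is a difference of readings and no fold of expression is given. Leaving out filtered-air mouse 1, 2, 3 or 5, or else PM2.5 mouse 1, 2 or 5 or combined mouse 3, ended the call, at an adjusted p of up to 0.14. In metformin, mice 1 and 2 read 6.20 and 6.53 and mice 3 to 5 read 4.91, 4.93 and 4.95, the same mice high and low as for Cyp2j9. The combined mice read 6.06, 7.35, 6.81, 6.93 and 5.79, all above filtered air. The combined group exceeded metformin by 1.08 ± 0.32 (adjusted p = 0.0269; 0.71 and 0.248 without combined mice 2 and 4) and filtered air by 1.58 ± 0.32 (adjusted p = 0.000907; 1.21 and 0.0201). The call against metformin was also lost without metformin mouse 3, 4 or 5 or combined mouse 2, 3 or 4, at an adjusted p of up to 0.0813.

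The other cluster members moved the opposite way in the combined group. Cyp2j5, an epoxygenase of liver and kidney, read 17.30 to 17.50 in filtered air and 16.76 to 17.17 in the combined group, with no overlap and a difference of -0.33 ± 0.11 (limma adjusted p = 0.0297). That call was lost without filtered-air mouse 1 or 3 or combined mouse 2 or 3 (adjusted p up to 0.0974), and without combined mice 2 and 4 together it was -0.27 (0.129). Cyp2j6 read 12.51 to 13.04 in filtered air and 11.92 to 12.65 in the combined group, which overlapped by 1 filtered-air mouse, and fell by 0.58 (adjusted p = 0.00526; -0.49 and 0.0414 without combined mice 2 and 4). Neither gene passed in PM2.5 alone, where Cyp2j5 differed by -0.19 ± 0.11 and Cyp2j6 by -0.22 ± 0.15.

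**Figure D2:**
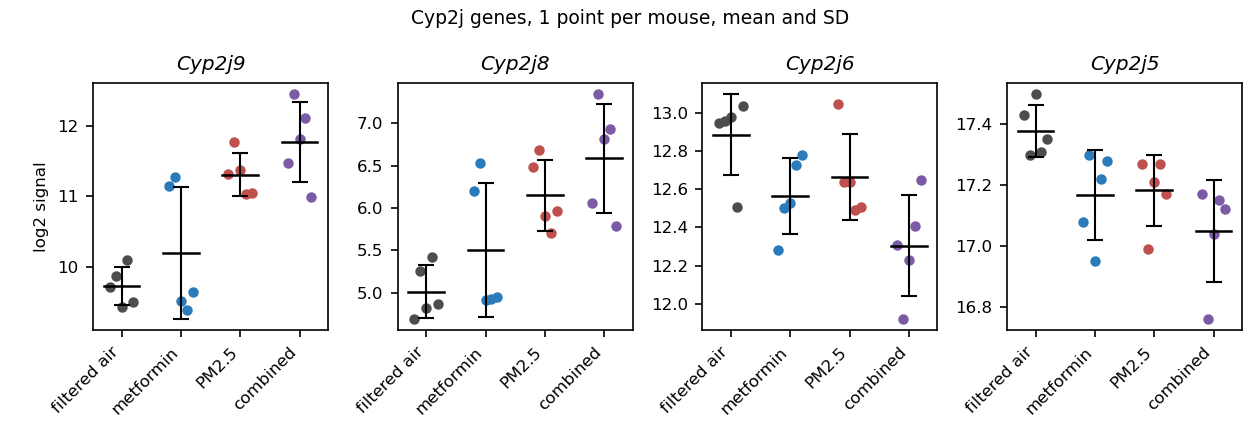
Log2 signal of 4 Cyp2j genes in each mouse by group, in order of mouse number, with the group mean (long line) and SD (bars, n = 5); each panel has its own axis. Cyp2j9 and Cyp2j8 sit above filtered air in every PM2.5 and combined mouse and split the metformin group into 2 high and 3 low mice, while Cyp2j5 and Cyp2j6 are lowest in the combined group.

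The known targets of the pollutant receptor did not pass in PM2.5. Cyp1a2, which oxidises caffeine and aromatic amines, read 14.61, 14.16, 14.53, 14.11 and 14.43 in filtered air and 14.02, 14.31, 14.83, 14.60 and 14.52 in PM2.5. The groups overlapped fully, with a difference of 0.09 ± 0.34 and a 95% interval of -0.62 to 0.80 (limma adjusted p = 0.908). Cyp1a1 and Cyp1b1, the most inducible members of the family, had means of 3.15 and 3.25 and highest readings of 3.62 and 3.77, below the negative-control median in every mouse. Of 5 other targets of the receptor that were tested, 0 were called by limma in PM2.5 against filtered air and 0 had an unadjusted p under 0.05. Their median difference was 0.25, and Tiparp and Nqo1 differed by 0.25 ± 0.14 and 0.35 ± 0.25.

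Both xenobiotic receptors of the Cyp2b, Cyp2c and Cyp3a genes were higher in PM2.5. Nr1i3 (CAR) read 11.55 to 12.22 in filtered air and 12.39 to 13.38 in PM2.5, with no overlap and a difference of 0.98 ± 0.20 (limma adjusted p = 0.00651). Nr1i2 (PXR) read 9.76 to 10.25 in filtered air and 10.61 to 11.28 in PM2.5, a difference of 0.97 ± 0.14 (adjusted p = 0.000785), also without overlap. Of 11 genes in the list of xenobiotic receptors and their partners, 2 rose and 0 fell, beside 2.67% of all genes higher and 2.5% lower. The genes that these receptors are best known to drive did not pass: Cyp2b10, the standard CAR target, differed by 0.34 ± 0.21 (adjusted p = 0.357), and Cyp3a11, the standard PXR target, by 0.08 ± 0.10 (adjusted p = 0.691). Over all mice Cyp3a11 read 18.32 to 18.63, near the highest deposited value of 19.03. Among 17 tested genes of a list of other CAR and PXR targets, 2 rose and 0 fell, beside the same shares of all genes. Abcc3, an efflux transporter, differed by 0.92 (adjusted p = 0.00352), and Alas1, the first enzyme of heme synthesis, differed by 0.88 ± 0.25 (adjusted p = 0.045, and up to 0.137 with 1 mouse left out). Leaving out filtered-air mouse 1, 2, 3 or 5 ended the Alas1 call, as did leaving out PM2.5 mouse 2, 3, 4 or 5 or combined mouse 1 or 3.

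The next comparison asked what metformin did without labelled particle exposure. Cyp3a13 and Cyp2a5 were higher and Cyp2c69 was lower in metformin than in filtered air. The counts were 2 of 47 higher and 1 of 47 lower, beside 1.26% of all genes tested higher and 1.89% lower. The median member difference was 0.09, against 0.00 for all genes.

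Cyp3a13, a member of the subfamily that clears many drugs and is also found in intestine, read 15.64, 15.12, 15.43, 15.70 and 15.06 in filtered air. It read 16.51, 16.29, 16.26, 16.26 and 16.32 in metformin, where every mouse lay above every filtered-air mouse. The difference was 0.94 ± 0.15 (1.92-fold, limma adjusted p = 0.00103), and no single left-out mouse raised the adjusted p above 0.00526. In PM2.5 it read 15.57, 15.76, 15.71, 15.69 and 15.39, a difference from filtered air of 0.23 ± 0.15 that did not pass. The combined mice read 15.77, 16.31, 16.09, 16.25 and 15.75, all above filtered air, with a difference of 0.64 ± 0.15 (adjusted p = 0.00201; 0.48 and 0.0366 without combined mice 2 and 4). The PM2.5 difference was 0.53 lower in metformin-treated than in untreated mice (interaction -0.53 ± 0.21, unadjusted p = 0.0187, adjusted p = 0.272), which did not pass.

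Cyp2a5, the coumarin and nicotine hydroxylase of mouse liver, read 16.69, 16.85, 16.95, 16.54 and 16.85 in filtered air and 17.37, 17.19, 17.58, 17.24 and 17.48 in metformin. No reading was shared between the groups' ranges, and the difference was 0.59 ± 0.16 (1.51-fold, limma adjusted p = 0.0459). This call stood close to the threshold: among the 20 fits with 1 mouse left out it was kept only without PM2.5 mouse 2 or 5 or combined mouse 2, 3, 4 or 5, and it rose to 0.121 without metformin mouse 3. The PM2.5 mice read 17.32, 17.62, 17.45, 17.19 and 16.89, and their difference of 0.52 ± 0.16 had an adjusted p of 0.0634. The combined mice read 17.76, 17.84, 18.11, 17.67 and 17.17, all above filtered air. Their difference of 0.93 ± 0.16 (1.91-fold, adjusted p = 0.000227) was 0.90 without combined mice 2 and 4 (adjusted p = 0.00339). Cyp2a4, with the near-identical promoter printed above, differed by 0.31 ± 0.33 in metformin and 0.38 ± 0.33 in the combined group and passed in neither.

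**Figure D3:**
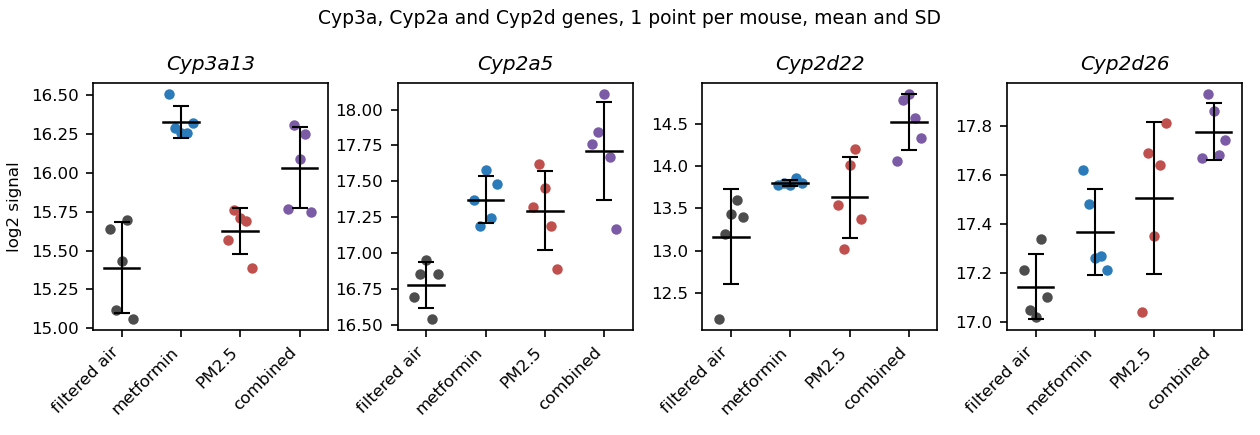
Log2 signal of Cyp3a13, Cyp2a5, Cyp2d22 and Cyp2d26 in each mouse by group, in order of mouse number, with the group mean (long line) and SD (bars, n = 5); each panel has its own axis. All 4 genes were higher in every combined mouse than in every filtered-air mouse, and Cyp3a13, Cyp2a5 and Cyp2d22 were higher in every metformin mouse as well.

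Cyp2c69, a Cyp2c gene of the cluster printed above, read 13.59, 14.06, 14.66, 13.54 and 13.50 in filtered air and 12.05, 12.98, 12.78, 13.37 and 12.99 in metformin. The groups did not overlap, and the difference was -1.03 ± 0.28 (2.05-fold lower, limma adjusted p = 0.0451). The call was lost without filtered-air mouse 1, 2, 3 or 5, metformin mouse 1, 2, 3 or 5, PM2.5 mouse 3 or 5, or combined mouse 1, at an adjusted p of up to 0.123. Its neighbour Cyp2c40 differed by -1.63 ± 0.53, which did not pass (adjusted p = 0.0949). Over the 13 Cyp2c genes the metformin differences ran from -1.63 to 0.38 with 9 below 0.

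In the same comparison Nr1i3 was higher by 1.51 ± 0.20 (limma adjusted p = 0.000134) and Nr1i2 by 0.74 ± 0.14 (adjusted p = 0.00483). Ppara, the fatty-acid receptor, was higher by 0.94 ± 0.19 (adjusted p = 0.00975). In all, 4 of the 11 receptor genes rose and 0 fell, beside 1.26% of all genes higher and 1.89% lower. Alas1 was higher by 1.15 ± 0.25 (adjusted p = 0.0164), a call lost without metformin mouse 3 (0.0545). As in PM2.5, Cyp2b10 and Cyp3a11 did not pass, with differences of 0.16 ± 0.21 and 0.06 ± 0.10.

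The combined group was then set against PM2.5, which asked what metformin did in exposed mice. Cyp2c69, Cyp2c40, Cyp2c67 and Cyp2b19 were lower, and Cyp2d22 and Cyp2u1 were higher. The counts were 2 of 47 higher and 4 of 47 lower, beside 6.95% of all genes tested higher and 4.73% lower, and the median difference was -0.07 against -0.01 for all genes. Without combined mice 2 and 4, 0 of the 47 members were called by limma in this comparison, beside 206 of all 11844 genes. A count of 0 is thus near that share and does not set the members apart. An unadjusted p under 0.05 was found for 11 members, and no such count over all genes is given for this fit. All 6 genes kept their direction, with adjusted p values from 0.0789 to 0.427.

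Cyp2c40, an arachidonic acid hydroxylase, read 13.64, 14.31, 15.53, 13.96 and 14.75 in filtered air and 11.53, 13.14, 12.45, 13.76 and 13.17 in metformin. It read 14.78, 13.16, 14.40, 13.88 and 14.40 in PM2.5 and 11.35, 11.91, 13.54, 10 and 13.20 in the combined group. Combined mice 1, 2 and 4 lay below every PM2.5 mouse, while mice 3 and 5 overlapped the lowest PM2.5 mouse. The combined group was lower than PM2.5 by a difference of -2.13 ± 0.53 (4.36-fold lower, limma adjusted p = 0.0135; -1.43 and 0.171 without combined mice 2 and 4). Against filtered air, which it did not overlap, the difference was -2.44 ± 0.53 (5.42-fold lower, adjusted p = 0.00139; -1.74 and 0.0217).

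Cyp2c69 read 14.20, 13.15, 13.80, 13.52 and 13.95 in PM2.5 and 12.29, 11.93, 13.23, 11.82 and 12.43 in the combined group. Only combined mouse 3 overlapped the PM2.5 mice. The difference from PM2.5 was -1.39 ± 0.28 (2.61-fold lower, limma adjusted p = 0.0043; -1.08 and 0.0789 without combined mice 2 and 4), and from filtered air, with no overlap, -1.53 ± 0.28 (2.89-fold lower, adjusted p = 0.00034; -1.22 and 0.00883).

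Cyp2c67 read 15.15, 15.17, 14.98, 14.84 and 14.70 in filtered air, 14.63, 14.82, 14.78, 14.70 and 14.86 in PM2.5, and 14.38, 14.01, 14.45, 14.01 and 14.58 in the combined group. Every combined mouse lay below every mouse of both other groups. The difference from PM2.5 was -0.47 ± 0.15 (limma adjusted p = 0.0476; -0.29 and 0.427 without combined mice 2 and 4), and from filtered air -0.68 ± 0.15 (adjusted p = 0.00176; -0.50 and 0.0346). Among the fits with 1 mouse left out, the call against PM2.5 was kept only without filtered-air mouse 5, metformin mouse 1 or 5, or combined mouse 5, and the adjusted p rose to 0.145 without combined mouse 4. Cyp2c68, which lies between Cyp2c67 and Cyp2c40 in the gene order and shares the CAAAGTCCA element, differed from PM2.5 by -0.19 ± 0.14 and from filtered air by -0.32 ± 0.14 and passed in neither.

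**Figure D4:**
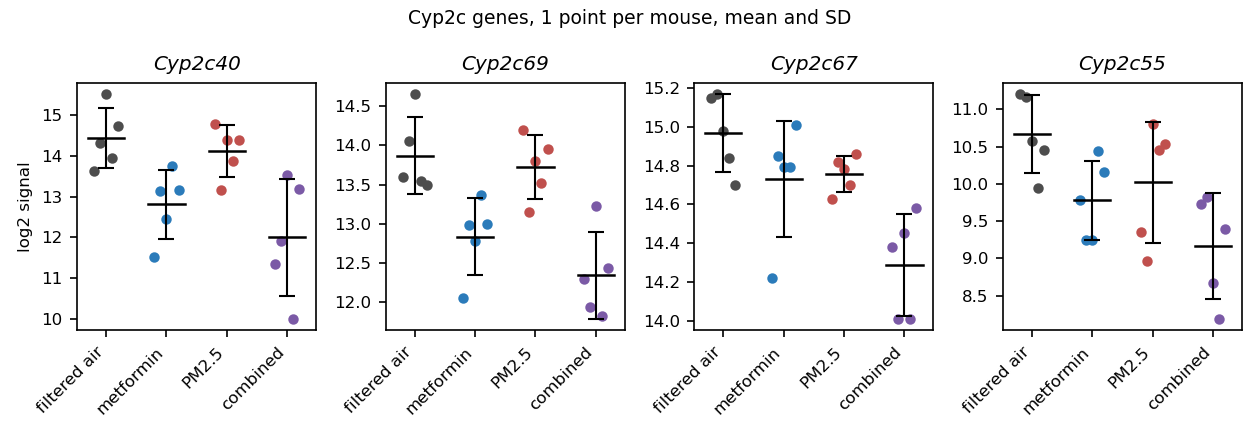
Log2 signal of 4 Cyp2c genes in each mouse by group, in order of mouse number, with the group mean (long line) and SD (bars, n = 5); each panel has its own axis. Cyp2c40, Cyp2c69, Cyp2c67 and Cyp2c55 have their lowest group mean in the combined mice, and the spread of Cyp2c40 is widest there (SD 1.43).

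Cyp2d22, a mouse counterpart of the human debrisoquine hydroxylase CYP2D6, read 12.19, 13.20, 13.43, 13.60 and 13.40 in filtered air and 13.78, 13.80, 13.78, 13.86 and 13.80 in metformin. It read 13.54, 13.02, 14.01, 14.21 and 13.37 in PM2.5 and 14.06, 14.79, 14.86, 14.57 and 14.34 in the combined group, where only mouse 1 lay within the PM2.5 range. The difference from PM2.5 was 0.89 ± 0.24 (1.86-fold, limma adjusted p = 0.0191), lost without PM2.5 mouse 2 (0.0506) or combined mouse 2 (0.0546). From metformin it was 0.72 ± 0.24 (adjusted p = 0.0413), and from filtered air 1.36 ± 0.24 (2.57-fold, adjusted p = 0.000233), both without overlap. The metformin call was lost without any single metformin mouse or without combined mouse 2, 3 or 4, at an adjusted p of up to 0.0965. Without combined mice 2 and 4 the 3 differences were 0.79 (adjusted p = 0.165), 0.62 (0.207) and 1.26 (0.00454).

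Cyp2u1, which hydroxylates long-chain fatty acids, read 6.19, 7.27, 6.82, 6.14 and 6.62 in PM2.5 and 7.13, 8.60, 7.08, 7.48 and 7.42 in the combined group. The groups overlapped, since PM2.5 mouse 2 exceeded combined mice 1 and 3. The difference was 0.93 ± 0.26 (limma adjusted p = 0.0233), lost without PM2.5 mouse 1 or 4 or combined mouse 2 or 4 (adjusted p up to 0.0719). Leaving out combined mice 2 and 4 together gave 0.60 (0.213).

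Cyp2b19, known from skin, read close to the negative controls, at 4.69, 5.12, 5.00, 5.19 and 4.72 in PM2.5 and 4.19, 4.35, 4.21, 4.13 and 4.57 in the combined group. The groups did not overlap, and the difference was -0.66 ± 0.17 (limma adjusted p = 0.0169; -0.62 and 0.126 without combined mice 2 and 4). The call was lost without PM2.5 mouse 4 (0.0522) or combined mouse 4 (0.0525).

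Set against metformin alone, the combined group differed by the labelled particle exposure. The metformin label names no air, so particles and chamber handling cannot be told apart in this comparison. Cyp2j9, Cyp2j8, Cyp2d22 and Cyp2d26 were higher and Cyp2b23 was lower, 4 of 47 higher and 1 of 47 lower, beside 9.69% of all genes tested higher and 6.63% lower. The median difference was -0.05 against 0.02 for all genes. Without combined mice 2 and 4 only Cyp2b23 was called, beside 363 of all 11844 genes higher and 136 lower in that fit. This comparison shares the combined mice with the one against PM2.5, so their values are not independent.

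Cyp2d26, a bright member of the drug-oxidising Cyp2d subfamily, read 17.62, 17.48, 17.26, 17.27 and 17.21 in metformin and 17.67, 17.93, 17.86, 17.68 and 17.74 in the combined group. Every combined mouse was higher, and the difference was 0.41 ± 0.14 (limma adjusted p = 0.0479; 0.39 and 0.168 without combined mice 2 and 4). Among the fits with 1 mouse left out this call was kept only without filtered-air mouse 4, metformin mouse 1, or PM2.5 mouse 1 or 5, and it rose to 0.112. Against filtered air, at 17.02 to 17.34, the combined group was higher by 0.63 ± 0.14 (adjusted p = 0.00152; 0.62 and 0.0118), and this call was kept with any single mouse left out.

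Cyp2b23 read 7.76, 8.18, 7.64, 8.02 and 7.84 in metformin and 7.71, 7.63, 7.05, 7.53 and 7.05 in the combined group, where only mouse 1 reached the metformin range. The difference was -0.49 ± 0.15 (limma adjusted p = 0.0294; -0.61 and 0.0453 without combined mice 2 and 4). The call was lost without metformin mouse 2, 4 or 5 or combined mouse 3 or 5, at an adjusted p of up to 0.0806.

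The widest contrast was the combined group against filtered air, in which 21 of the 47 members passed. The counts were 11 of 47 higher and 10 of 47 lower, beside 18.7% of all genes tested higher and 16.2% lower. The median difference was 0.08 against 0.01 for all genes. Of the 13 Cyp2c genes 6 fell and 0 rose, of the 8 Cyp2d genes 4 rose and 0 fell, of the 7 Cyp3a genes 3 rose and 0 fell, and the 4 Cyp2j genes divided into 2 higher and 2 lower. Without combined mice 2 and 4, 16 members were called, 9 higher and 7 lower, of which 14 were among the 21. Of all 11844 genes, 1574 were higher and 970 lower in that fit. The group means of filtered air entered this comparison as well as the 2 single-treatment ones.

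Beyond the Cyp2c genes already described, Cyp2c55 fell most. This gene, whose enzyme oxidises arachidonic acid and which xenobiotics induce, read 11.21, 11.16, 10.57, 9.95 and 10.45 in filtered air and 9.73, 9.83, 8.67, 8.19 and 9.40 in the combined group. The groups did not overlap, and the difference was -1.50 ± 0.37 (2.83-fold lower, limma adjusted p = 0.00327; -1.40 and 0.0174 without combined mice 2 and 4). Metformin mice at 9.25 to 10.44 and PM2.5 mice at 8.96 to 10.80 had intermediate means, with differences from filtered air of -0.89 ± 0.37 and -0.65 ± 0.37 that did not pass.

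Cyp2c70, which makes the muricholic acids of mouse bile, read 15.85 to 16.51 in filtered air and 14.86 to 15.90 in the combined group and differed by -0.72 ± 0.25 (limma adjusted p = 0.0291; -0.45 and 0.243 without combined mice 2 and 4). The dim Cyp2c65 differed by -0.65 ± 0.22 (adjusted p = 0.0284; -0.78 and 0.021). Both calls were lost when filtered-air mouse 1 or combined mouse 4 was left out, at an adjusted p of up to 0.0976 and 0.0896. The Cyp2c70 call was further lost without filtered-air mouse 3 or 5 or combined mouse 2, and the Cyp2c65 call without filtered-air mouse 4 or combined mouse 3 or 5. Of the 6 Cyp2c genes with CAAAGTCCA in the promoter, 5 thus fell in the combined group and Cyp2c68 did not pass, while Cyp2c55 fell without being among the 8 genes that hold it. Cyp3a11 and Cyp3a16, which also hold it, differed by 0.00 ± 0.10 and -0.16 ± 0.20. This grouping was made after the values were seen and is a description.

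Cyp2r1, which hydroxylates vitamin D in liver, read 11.42, 11.05, 11.26, 11.64 and 11.66 in filtered air and 10.88, 10.41, 10.93, 10.44 and 10.87 in the combined group, with no overlap. The difference was -0.70 ± 0.22 (limma adjusted p = 0.0187; -0.51 and 0.157 without combined mice 2 and 4), and the call was lost without combined mouse 2 (0.0506) or 4 (0.0513). In metformin alone the gene differed by -0.76 ± 0.22, which did not pass (adjusted p = 0.0646). Cyp2b19 also fell, by 0.46 (adjusted p = 0.042; -0.42 and 0.139), a call lost without filtered-air mouse 1, 2, 3 or 5 or combined mouse 1, 2, 3 or 4.

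Cyp2e1, which oxidises ethanol and acetone, read 17.88, 17.91, 17.87, 17.90 and 17.81 in filtered air and 18.23, 18.08, 18.33, 18.29 and 18.23 in the combined group. Every combined mouse was higher, and the difference was 0.36 ± 0.10 (1.28-fold, limma adjusted p = 0.00832; 0.39 and 0.0194 without combined mice 2 and 4). Metformin mice at 18.05 to 18.32 and PM2.5 mice at 18.06 to 18.24 also lay above every filtered-air mouse, with differences of 0.32 ± 0.10 (adjusted p = 0.0787) and 0.25 ± 0.10 (0.133) that did not pass. These readings are near the top of the deposited range.

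The remaining genes that rose did so by small steps. Cyp3a59 differed by 0.53 ± 0.16, Cyp2d40 by 0.49 ± 0.17, Cyp2d34 by 0.41 ± 0.14 and Cyp3a25 by 0.34 ± 0.11 (limma adjusted p = 0.0164, 0.0282, 0.03 and 0.022). Leaving out combined mice 2 and 4, their adjusted p values were 0.135, 0.268, 0.029 and 0.168. Each of these 4 calls was also lost without combined mouse 2 alone, at 0.0545, 0.0906, 0.0595 and 0.0593. The Cyp2d40 call was lost besides without filtered-air mouse 3 or 5 or combined mouse 4, the Cyp2d34 call without filtered-air mouse 2 or 5 or combined mouse 3, and the Cyp3a25 call without filtered-air mouse 3 or combined mouse 4.

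Several of the best known hepatic members passed in no comparison. Cyp3a11 read 18.32 to 18.62 in filtered air and 18.44 to 18.49 in the combined group, a difference of 0.00 with a 95% interval of -0.20 to 0.21 (limma adjusted p = 0.98). Its readings sit near the top of the deposited scale. Cyp1a2 differed by 0.56 (interval -0.15 to 1.27), Cyp2b10 by 0.24 (-0.20 to 0.69) and Cyp2d9, a testosterone hydroxylase of male liver, by -0.09 (-0.75 to 0.57). Cyp2f2, which activates naphthalene, differed by -0.14 (-0.43 to 0.15), Cyp2c50 by -0.11 (-0.36 to 0.15) and Cyp2b9, higher in female than male mouse liver, by -0.15 (-0.47 to 0.16). Cyp2g1, known from the olfactory lining, read 3.75 to 5.50 over all mice, at the level of the negative controls.

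Of the 11 receptor genes 5 rose and 0 fell in this contrast, beside 18.7% of all genes higher and 16.2% lower. Their differences ran from -0.14 to 1.89. Without combined mice 2 and 4, 4 rose, beside 1574 of all 11844 genes. Nr1i3 read 13.27 to 14.15 in the combined group, above every filtered-air mouse, with a difference of 1.89 ± 0.20 (limma adjusted p = 3.23e-06; 1.77 and 0.000135 without combined mice 2 and 4), and it was also higher than in PM2.5 by 0.91 ± 0.20 (adjusted p = 0.00587; 0.79 and 0.0738). Nr1i2 differed from filtered air by 0.71 ± 0.14 (adjusted p = 0.000549; 0.70 and 0.00532) and Alas1 by 1.38 ± 0.25 (adjusted p = 0.000325; 1.36 and 0.00449). Alas1 belongs to the list of other CAR and PXR targets, of which 17 were tested. Of these 17, 3 rose and 4 fell against filtered air, beside the same 18.7% and 16.2% of all genes. Without combined mice 2 and 4, 4 rose and 2 fell, beside 1574 of all 11844 genes higher and 970 lower. The list as a whole thus did not rise with the receptors. Hnf4a, which encodes a factor of the CAAAGTCCA type of element, was higher by 0.59 ± 0.14 (adjusted p = 0.00352; 0.60 and 0.0175). Tiparp, a target of the aryl hydrocarbon receptor, was lower by a difference of -0.40 ± 0.14 (adjusted p = 0.0307), a call lost without combined mice 2 and 4 (-0.32, adjusted p = 0.126). Of 8 listed partner proteins of P450 enzymes, 6 were tested, such as cytochrome b5 and the Pgrmc proteins, and P450 reductase was not among them. Against filtered air 0 of the 6 were called by limma. The unadjusted p was under 0.05 for 1 of them, beside 5214 of all 11844 genes. Against metformin 1 of the 6 rose, beside 9.69% of all genes. This was Pgrmc2, by 0.97 (limma adjusted p = 0.00748; 0.66 and 0.109 without combined mice 2 and 4). Of 12 other genes of the pericentral zone, where many P450 enzymes are found, 1 fell and 0 rose. Without combined mice 2 and 4, 0 passed in either direction, beside 1574 of all 11844 genes higher and 970 lower. The unadjusted p was then under 0.05 for 4, and no such count over all genes is given for this fit.

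The last comparison asked whether the PM2.5 difference changed with metformin. No member passed: 0 of 47 were called by limma, beside 0.186% of all genes tested. That share of all genes is 22 calls, which became 289 without combined mouse 5 and between 7 and 30 with any other mouse left out, while the member count stayed at 0. The unadjusted p was under 0.05 for 3 members, beside 1545 of all 11844 genes tested. These 3 were Cyp2b19 (-0.67 ± 0.24), Cyp3a13 (-0.53 ± 0.21) and Cyp2b23 (-0.53 ± 0.21), and the lowest adjusted p was 0.229. For Cyp2c40 the estimate was -0.50 with a 95% interval of -2.06 to 1.06, for Cyp2c69 -0.35 (-1.17 to 0.47), for Cyp2a5 -0.18 (-0.65 to 0.30) and for Cyp2d22 0.25 (-0.45 to 0.95). Each of these 4 intervals spans 0. Nr1i2 was the only one of the 11 receptor genes that passed, with an interaction of -1.0 (adjusted p = 0.0356), lost without combined mice 2 and 4 (0.0698) and without filtered-air mouse 2 or 5, metformin mouse 1, 2 or 3, PM2.5 mouse 1 or 2, or combined mouse 1 or 4 (adjusted p up to 0.0923).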

How the data were processed

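Liver RNA of 20 mice (5 per group) was hybridised to 1 array each. The deposited values are log2 signals that the authors made with Affymetrix Expression Console, per the submitters' processing notes; the version, the summary method and the genome build are not given in the sources used here. The series text names a different array from the one whose probe identifiers the table holds, and genes were named through GEO's platform annotation: of 22206 non-control probe sets, 19572 name 1 gene, which gave 19505 genes. The probe set with the highest mean stood for a gene; no member had several. Genes with a mean under 4.05, the 40th percentile of non-control probe sets, were left out, and 11844 were fitted with limma 3.58.1 (R 4.3.3; group means over all 20 arrays, eBayes, 16 residual degrees of freedom, two-sided, Benjamini-Hochberg over all genes, threshold 0.05). The fit was also run on simulated data with independent noise for each gene and mouse. Those data held no effect shared by the genes of an array, so the run cannot speak to such effects.

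The members and lists were chosen with earlier results of these data known. Genes named in full were, per comparison, up to 10 members with the lowest p among those that passed, the member with the highest mean signal of each subfamily, and well-known P450 genes; other members that passed are given briefly. Promoters came from RefSeq and were aligned with Biopython 1.88. Alternatives changed the filter, scaling, probe summary, weights, moderation, groups fitted and negative-control covariate, and left out each mouse or combined mice 2 and 4. Replicate numbers only name mice. The number of arrays limits the precision.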

Additional observations from a re-analysis of the deposited data

Results flagged for a closer look

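In 6 of 96 groups of 5 mice, counted over the fully described genes, 1 mouse stood apart from its group by Dixon's 95% criterion, where chance flags about 1 in 20. Cyp1a2, the caffeine-oxidising enzyme, read 15.69 in combined mouse 4 against 14.52 to 14.85 in the other 4. Cyp2b10, the standard CAR target, read 14.82 in filtered-air mouse 5 against 15.17 to 15.31. Cyp2c67 read 14.22 in metformin mouse 1 against 14.79 to 15.01. Cyp2d22 read 12.19 in filtered-air mouse 1 against 13.20 to 13.60. Cyp2u1 read 8.60 in combined mouse 2 against 7.08 to 7.48, in a gene whose call is lost without that mouse. Cyp3a13 read 16.51 in metformin mouse 1 against 16.26 to 16.32, a group whose spread was narrow.

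Cyp3a13 was also marked because its PM2.5 difference took opposite signs without and with metformin. It was 0.23 in untreated mice and -0.29 in metformin-treated mice, apart by 0.53, and the interaction test gave an unadjusted p of 0.0187 and an adjusted p of 0.272 in limma, so the difference did not pass.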

How the results depend on the processing

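No called member reversed its direction under any alternative, and no alternative gave a called member in the interaction. Counts of P450 genes called moved by over 1.5 times as follows. For PM2.5 against filtered air (2), they were 1 with no filter or median centring and 4 with array weights. For metformin against filtered air (3), they were 1 with no filter or the negative-control covariate and 6 with array weights. For combined against PM2.5 (6), they were 0 with the covariate or without combined mice 2 and 4. For combined against metformin (5), they were 3 with no filter, 2 with the compared groups alone or the covariate, and 1 without combined mice 2 and 4. For combined against filtered air (21), they were 6 with the covariate, 5 of them among the 21. With 1 mouse left out the counts ran from 1 to 3, 1 to 4, 3 to 10, 1 to 6 and 15 to 21, and the interaction count stayed at 0. With the covariate, combined against filtered air kept Cyp2a5 (adjusted p = 0.0189), Cyp2c65 (0.0388), Cyp2c69 (0.046), Cyp2d22 (0.00986) and Cyp2j9 (0.0241), but not Cyp2c40 (-1.42, 0.154) or Cyp3a13 (0.47, 0.108). Over all genes, calls fell with the covariate from 1383 to 79 (combined against PM2.5) and from 4136 to 1054 (combined against filtered air), and without combined mice 2 and 4 to 206 and 2544; array weights raised PM2.5 calls from 612 to 1376 and metformin calls from 373 to 854. With 1 mouse left out, calls over all genes ran from 208 (PM2.5 mouse 2) to 759 in PM2.5 against filtered air, from 157 (metformin mouse 3) to 487 in metformin, from 637 (combined mouse 4) to 2143 (combined mouse 5) in combined against PM2.5 and from 1138 (combined mouse 4) to 2407 in combined against metformin. Leaving out filtered-air mouse 1, 2 or 3 or PM2.5 mouse 5 gave 268, 377, 372 and 248 for PM2.5, and filtered-air mouse 1, 2, 3 or 5 or metformin mouse 4 gave 161, 171, 216, 194 and 248 for metformin, and PM2.5 mouse 3 or 4 or combined mouse 2 gave 844, 772 and 753 for combined against PM2.5, so the shares of all genes printed beside the members' counts depend on single mice. The cause was not tested. The share of higher calls in combined against PM2.5 went from 59.5% to 91.1% with the covariate. No paired analysis was possible because the replicate numbers only name the mice. Dim genes (Cyp2j8, Cyp2b19, Cyp2c65, Cyp2d34, Cyp2u1, Cyp2b23) limit what their differences show.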

Other observations

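Some members varied between mice of 1 group more than between groups. Metformin mouse 3 and combined mouse 3 read low in 3 Cyp2b genes and high in Cyp2a4, a pattern picked after the values were seen. Cyp2b13, a gene higher in female than male mouse liver, read 13.40 in metformin mouse 3 against 15.42, 17.27, 15.61 and 15.95 in the others, and 14.93 in combined mouse 3 against 16.36, 16.25, 16.50 and 16.29. Cyp2b9 read 16.82 and 16.93 in these mice, the lowest of their groups, where the others read 17.35 to 17.67 and 17.12 to 17.67. Cyp2b10 read 14.62 and 14.59, where the others read 15.30 to 15.61 and 15.14 to 15.98. Cyp2a4, a steroid hydroxylase also higher in females, read 16.19 and 16.48, the highest of their groups.

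Cyp3a41a and Cyp3a41b, P450 genes whose symbols end in a letter and which therefore fell outside the set, differed between combined and filtered air by -0.31 ± 0.52 and -0.36 ± 0.34 and did not pass (limma adjusted p = 0.686 and 0.446). Both read lowest in combined mouse 5, at 9.64 and 11.10.

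Some genes of the circadian clock, whose outputs include several P450 genes, also differed between groups. Of 15 tested, 6 rose and 0 fell in the combined group against filtered air, beside 18.7% of all genes higher and 16.2% lower. Leaving out combined mice 2 and 4 gave 2 higher and 0 lower, beside 1574 of all 11844 genes higher and 970 lower, which is near that share. Against filtered air, 1 rose and 0 fell in PM2.5, beside 2.67% of all genes higher and 2.5% lower. In metformin 2 rose and 2 fell, beside 1.26% higher and 1.89% lower. Arntl differed by 1.09 in PM2.5 (limma adjusted p = 0.0196, up to 0.0685 with 1 mouse left out) and by -1.57 in metformin (adjusted p = 0.0019). The hour of collection is not given in the labels, and its part in the P450 results was not tested.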
